A study of Mus musculus with 6 samples.

Results

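Interferon-stimulated genes are the transcripts that a cell switches on after an interferon binds its receptor. The set described here holds 41 of the 19505 genes named on the array. It was fixed by gene symbol, without a threshold on the measured values, and is split into 34 antiviral genes of the type I interferon response and 7 genes for interferon-inducible GTPases. The members were chosen with earlier results of these data known. Their counts and medians, set beside all gene probe sets, therefore describe the set and are no independent test. Each of the 41 symbols had 1 probe set, so that no choice among probe sets was needed, and all 41 gene identifiers matched RefSeq.

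Cultured lines derived from melan-a, an immortalized melanocyte line from C57BL/6J mice, were compared on 6 Affymetrix Clariom S arrays. The mVec line received a control vector, titled CD516B2. The lines mKitK641E(T) and mKitK641E(PT), abbreviated T and PT and together called the Kit lines, are both labelled as melanoma transformed by Kit carrying the K641E substitution, which activates this receptor tyrosine kinase. The array titles add C3# for T and hi exp for PT, and the sources used here do not state what T, PT and these additions stand for. All 3 lines grew in RPMI medium with 10% fetal bovine serum and were left untreated. Each group is 1 line with 2 arrays (n = 2 throughout), and nothing states whether the 2 arrays came from separate cultures. The p-values therefore measure the spread between arrays, which may be technical, and differences between lines cannot be told apart from an effect of mutant Kit.

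Type I interferons act through a receptor built from Ifnar1 and Ifnar2 and the kinases Jak1 and Tyk2. Their signal assembles the complex ISGF3, which contains Stat2 and Irf9 and binds the interferon-stimulated response element, or ISRE, of target promoters. Interferon gamma acts largely through another element, the gamma-activated site, or GAS, and induces the factor Irf1. Several target genes feed back on the pathway, Usp18 by damping the receptor and the RNA sensors by raising interferon output.

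Values are log2 expression as deposited, with differences on the log2 scale followed by the standard error of the limma fit. A probe set counts as above background on an array when it exceeds the 95th percentile of the 5222 negative-control probe sets of that array, a limit between 8.74 and 9.16. Where 1 group lay at background on both arrays and the other did not, the fold is given as "at least", measured against the limit. Such a bound uses the mean of the brighter group and the limits, and not the values at background. Bounds in T and in PT therefore do not compare the size of the fall between these lines. No fold is printed for a gene that lay at background in both groups. Between 29.0% and 32.6% of the 22206 gene probe sets exceeded the limit on each array. With 2 arrays in each group, their number limits the precision of every value. None of the 12 melanocyte markers was above background in mVec or PT, and Mitf alone was above it in T, so the labelled cell type was not borne out by its defining markers on these arrays. Kit was at background on every array (4.68 and 4.97 in mVec, 4.53 and 5.18 in T, and 4.53 and 3.84 in PT), so its signal does not check the labels of the lines.

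In mVec, 30 of the 41 genes were above background on both arrays, 2 on 1 array and 9 on neither. With the 99th percentile of the negative controls as the limit, 12 in place of 30 were above it on both arrays, and the bounds on folds rest on the same choice of limit. In T only 5 genes were above it on both arrays, Ifih1, Eif2ak2, Bst2, Cxcl10 and Irgm1, and 1, Parp12, on 1 array. In PT there were 4, Ifih1, Eif2ak2, Bst2 and Cxcl10, and the other 37 lay at background on both arrays. The limma test called 36 of the 41 lower in T than in mVec and 0 higher, while 15.5% of all gene probe sets were called lower, 16.9% higher and 32.4% either way. At an unadjusted p under 0.05, also 0 were higher. For PT minus mVec the counts were 36 lower and 1 higher, beside 18% and 17.9% of all probe sets (35.9% either way). Over the 41 genes the median difference, values at background included, was -4.48 in T and -4.63 in PT, against 0.01 and 0.08 over all gene probe sets. Both comparisons use the same mVec arrays and are not independent. In bulk RNA, fewer cells that express a gene and less of its RNA in each cell cannot be told apart.

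**Figure D1:**
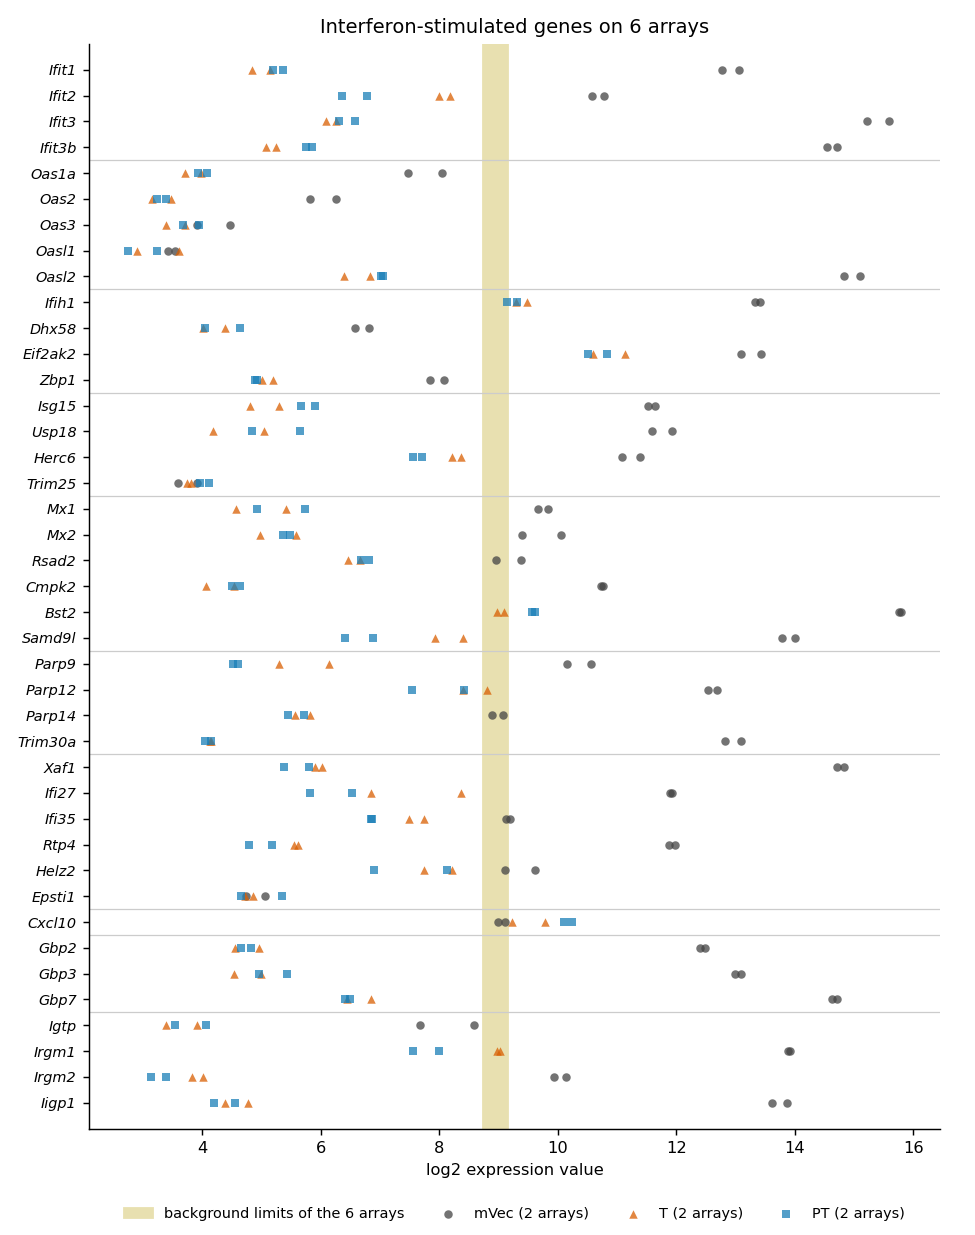
Log2 expression of the 41 genes on each array, with grey circles for mVec, orange triangles for T and blue squares for PT (2 arrays each). Rows run by role and the shaded band spans the background limits of the 6 arrays (8.74 to 9.16). The mVec circles lie to the right of the T triangles for 37 genes and of the PT squares for 37, and the Cxcl10 circles lie to the left of both.

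For 37 of the 41 genes both T arrays lay below both mVec arrays, and the same count held for PT. Over all gene probe sets these shares were 30% for T and 28.7% for PT. The gap between the 2 arrays of a line was small beside the falls, with a median over the 41 genes of 0.32 in T, 0.25 in PT and 0.23 in mVec. The widest gaps were those of Ifi27 in T (1.52), Helz2 in PT (1.23) and Igtp in mVec (0.91). For 26 genes in T the fold is a lower bound, with a median of 8.03-fold and a range from 1.11 to 95.4, and for 27 in PT the median is 7.54-fold and the range 1.10 to 84.3. These bounds rest on the mVec values and the limits, and do not show a larger fall in T.

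The antiviral genes and the GTPases are given apart. Of the 34 antiviral genes, 29 fell in T and 29 in PT, with medians over all 34 of -3.99 and -4.22. All 7 GTPase genes fell in both lines, with medians of -7.69 and -7.71. The 5 antiviral genes not called lower in T were also the 5 not called lower in PT, namely Oas3, Oasl1, Trim25, Epsti1 and Cxcl10. The first 4 of these were at background on every array, and Cxcl10 was not. No test was run of one class against the other.

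The promoters were also searched for the ISRE, a search that used no array values. Because the 41 genes were chosen as interferon-stimulated genes, ISRE letters could be frequent among them whatever the arrays showed. RefSeq promoters of GRCm38.p6, 250 bases before to 50 bases after a listed start, were at hand for 30 of the 41 genes (33 promoters, some genes having more than 1). The genes without one were Dhx58, Ifi27, Iigp1, Mx1, Mx2, Oas2, Parp14, Parp9, Rtp4, Usp18 and Zbp1. The ISRE was searched as 2 copies of GAAA with any 2 bases between them, and the GAS as TTCNNNGAA, on both strands. The ISRE letters occurred in 19 of the 33 member promoters (57.6%) and in 3.44% of all 32851 promoters of that length. The GAS letters occurred in 8 member promoters (24.2%) and in 8.30% of all promoters. By gene, 12 of 24 antiviral genes and 6 of 6 GTPase genes held the ISRE. A longer form of the ISRE, which ends in a further CT and so overlaps every time with the shorter one, occurred in 12 member promoters (36.4%) and in 0.271% of all. A match describes letters and does not show binding. The 250 bases before the start are printed for the antiviral gene and the GTPase gene with the largest mean deposited difference (values at background included) among those with a listed promoter, and for 2 genes that were not called lower. Capitals mark the ISRE letters on either strand. Ifit3b lies at chr19:34607707-34607956 on the plus strand, Gbp7 at chr3:142530086-142530335 on the plus strand, Cxcl10 at chr5:92348890-92349139 on the minus strand and Trim25 at chr11:88999153-88999402 on the plus strand.
Ifit3b: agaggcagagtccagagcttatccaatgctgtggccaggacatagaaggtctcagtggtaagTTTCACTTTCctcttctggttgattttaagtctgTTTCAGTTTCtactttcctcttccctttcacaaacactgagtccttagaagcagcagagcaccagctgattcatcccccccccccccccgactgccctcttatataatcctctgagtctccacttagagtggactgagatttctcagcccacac
Gbp7: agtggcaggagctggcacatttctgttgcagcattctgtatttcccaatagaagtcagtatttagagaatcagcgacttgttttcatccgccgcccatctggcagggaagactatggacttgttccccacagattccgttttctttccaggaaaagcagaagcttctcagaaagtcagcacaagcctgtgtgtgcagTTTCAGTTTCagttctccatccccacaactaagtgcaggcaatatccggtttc
Cxcl10: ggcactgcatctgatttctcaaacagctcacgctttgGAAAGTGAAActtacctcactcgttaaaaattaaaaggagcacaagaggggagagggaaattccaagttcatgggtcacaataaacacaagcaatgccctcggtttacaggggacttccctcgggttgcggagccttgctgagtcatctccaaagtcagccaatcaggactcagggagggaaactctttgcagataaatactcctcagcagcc
Trim25: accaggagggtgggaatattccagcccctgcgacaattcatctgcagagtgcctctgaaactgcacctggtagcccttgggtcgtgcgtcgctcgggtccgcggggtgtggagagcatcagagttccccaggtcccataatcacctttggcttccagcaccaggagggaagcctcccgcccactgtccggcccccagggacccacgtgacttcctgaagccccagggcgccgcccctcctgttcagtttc

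The ISRE of Gbp7 lies at positions -53 to -44 from the start, and Ifit3b holds one at -188 to -179 and another at -154 to -145. That of Cxcl10, a gene not called lower, is farther out at -213 to -204, the most distant among the members. Trim25, at background on every array, held no match in the window. Among the other GTPase genes, the ISRE began at -59 in Gbp2, at -34 in Igtp and at -64 in Irgm2, and 2 overlapping copies were found in Gbp3 and in Irgm1. Isg15 held 3 overlapping copies between -78 and -57. In Ifih1 and Eif2ak2 the match lay after the start, at 33 to 42 and at 19 to 28. With values at background included, the 18 genes with an ISRE in the window had a median difference of -6.33 in T and -6.15 in PT, and the 12 without had -2.77 and -3.86. Those with an ISRE include all 6 GTPase genes that had a listed promoter, and also Oas3 and Cxcl10, which were not called lower. Those without hold no GTPase gene and include Epsti1, Oasl1 and Trim25, at background on every array and not called lower. They also include Oasl2 and Xaf1, both called lower in each line. Whether the ISRE went with the size of the fall was not tested.

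**Figure D2:**
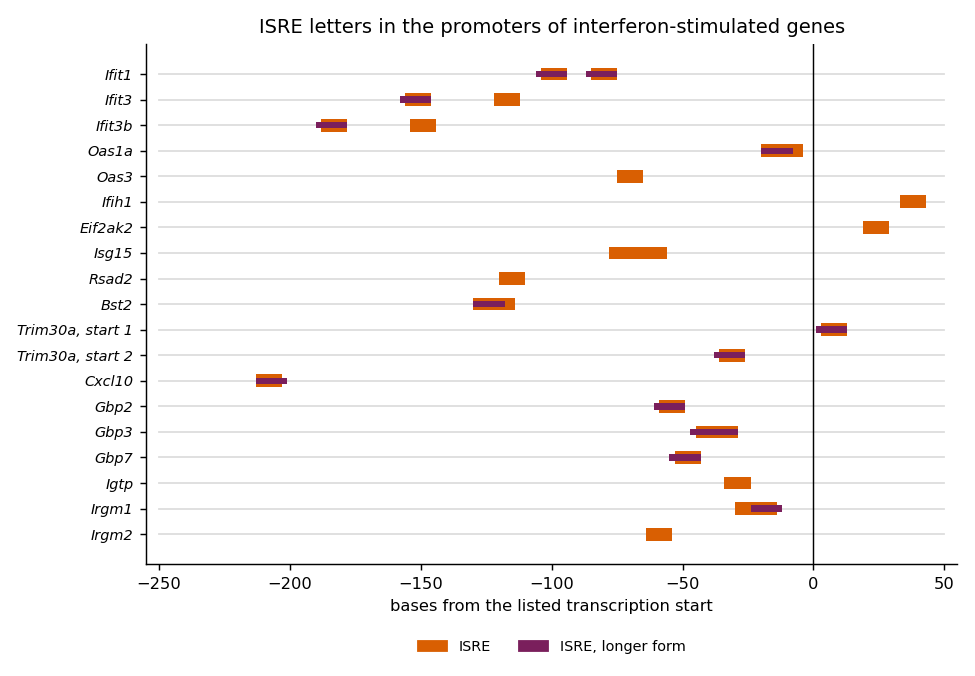
Positions of ISRE letters, in bases from the listed transcription start (vertical line), in the 19 member promoters that hold them (18 genes, Trim30a with 2 starts). Orange bars show the ISRE and purple bars its longer form, on either strand. The bars of the GTPase genes in the bottom rows lie between -64 and the start, and that of Cxcl10 lies at -213 to -204.

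The IFIT proteins bind viral RNA that lacks the cap marks of the host and block its translation. Ifit3 read 15.22 and 15.60 in mVec, 6.26 and 6.09 in T, and 6.57 and 6.30 in PT. Ifit3b, its neighbour and close copy, read 14.54 and 14.71 in mVec, 5.08 and 5.25 in T, and 5.86 and 5.74 in PT. Both genes were bright in mVec and far below the limit in the Kit lines, with no overlap between the lines and mVec. Whether the 2 probe sets respond to each other's transcripts was not tested. The fall of Ifit3 came to at least 95.4-fold in T (-9.24 ± 0.22, limma adjusted p = 1.45e-08) and 84.3-fold in PT (-8.97 ± 0.22). Ifit3b fell by at least 55.5-fold in T (-9.46 ± 0.20) and 49.0-fold in PT (-8.83 ± 0.20). Ifit1, the cap-binding member, read 13.05 and 12.77 in mVec, 4.84 and 5.14 in T, and 5.20 and 5.36 in PT. Its fall was therefore at least 16.9-fold in T and 14.9-fold in PT. Ifit2, another member of the family, read 10.77 and 10.58 in mVec, 7.99 and 8.18 in T, and 6.35 and 6.78 in PT. Its difference from mVec was -2.59 ± 0.23 in T and -4.11 ± 0.23 in PT.

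The OAS enzymes sense double-stranded RNA and make 2-5A, the activator of the nuclease RNase L, and Oasl1 is a related protein without that activity. Oasl2 read 15.11 and 14.83 in mVec, 6.39 and 6.83 in T, and 7.06 and 7.02 in PT. It was the one family member above background, and only in mVec, and fell by at least 70.2-fold in T (-8.36 ± 0.23) and 62.0-fold in PT (-7.93 ± 0.23). Oas1a and Oas2 stayed under the limit on all arrays yet were called lower in both lines. Oas1a read 8.05 and 7.47 in mVec, 3.97 and 3.70 in T, and 3.92 and 4.09 in PT (T minus mVec -3.92 ± 0.25, PT minus mVec -3.76 ± 0.25). Oas2 differed from mVec by -2.72 in both lines. The other members, Oas3 and Oasl1, were near the floor everywhere. Oas3 read 3.92 and 4.48 in mVec, 3.39 and 3.71 in T, and 3.67 and 3.94 in PT, with a T difference of -0.65 ± 0.25 that missed the threshold (adjusted p = 0.0818) and ran from -0.93 without mVec replicate 1 (adjusted p = 0.0487) to -0.37 without mVec replicate 2 (adjusted p = 0.462). Oasl1, the immediate neighbour of Oasl2 on chromosome 5, read 3.42 and 3.54 in mVec, 2.91 and 3.60 in T, and 2.75 and 3.24 in PT, with overlap between T and mVec. Its differences were -0.23 ± 0.28 in T (adjusted p = 0.622) and -0.49 ± 0.28 in PT (adjusted p = 0.228).

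All 4 sensors of foreign nucleic acid fell in both lines. Ifih1, or MDA5, which detects long double-stranded RNA, read 13.33 and 13.41 in mVec, 9.29 and 9.48 in T, and 9.31 and 9.14 in PT. Eif2ak2, or PKR, the kinase that stops translation when RNA of this kind appears, read 13.43 and 13.10 in mVec, 11.13 and 10.59 in T, and 10.83 and 10.51 in PT. Both remained above background in every line while lying lower in the Kit lines, without overlap. In T and PT, Ifih1 lay close to the limits, which ran from 8.74 to 9.16. Ifih1 was 15.8-fold lower in T (-3.98 ± 0.20) and 17.6-fold lower in PT (-4.14 ± 0.20), and Eif2ak2 was 5.30-fold lower in T (-2.40 ± 0.25) and 6.03-fold lower in PT (-2.59 ± 0.25). Dhx58, or LGP2, a regulator of Ifih1, and Zbp1, a sensor of left-handed nucleic acid that can start cell death, were at background on all arrays and still called lower. Dhx58 read 6.58 and 6.81 in mVec and between 4.01 and 4.63 in the Kit lines. Zbp1 read 8.08 and 7.84 in mVec and between 4.89 and 5.19 in the Kit lines.

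Isg15 is a ubiquitin-like protein that is attached to newly made proteins during the response. In mVec it read 11.64 and 11.53, in T 5.30 and 4.81, and in PT 5.66 and 5.91. Usp18, the protease that removes Isg15 and also restrains the receptor, read 11.59 and 11.93 in mVec, 5.04 and 4.19 in T, and 5.66 and 4.84 in PT. Both genes were above background in mVec alone, with no overlap between mVec and the Kit lines. Isg15 fell by at least 6.72-fold in T (-6.53 ± 0.23) and 5.93-fold in PT (-5.80 ± 0.23), and Usp18 at least 7.62-fold (-7.15 ± 0.34) and 6.73-fold lower (-6.51 ± 0.34). Herc6, the mouse ligase for Isg15, read 11.39 and 11.09 in mVec, 8.22 and 8.37 in T, and 7.71 and 7.55 in PT (-2.95 ± 0.21 in T and -3.61 ± 0.21 in PT). Trim25, a ubiquitin ligase that activates the sensor RIG-I, was not called in either line and lay at background on every array. It read 3.91 and 3.59 in mVec, 3.81 and 3.74 in T, and 3.97 and 4.12 in PT, with differences of 0.02 ± 0.21 (adjusted p = 0.955) and 0.29 ± 0.21 (adjusted p = 0.347).

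Direct effectors act on the virus or on what it needs to multiply. Bst2, or tetherin, holds budding virions at the cell surface. It read 15.77 and 15.79 in mVec, 9.10 and 8.97 in T, and 9.57 and 9.62 in PT. Because every group was above background, the folds were measured ones, 107-fold in T (-6.75 ± 0.20) and 72.7-fold in PT (-6.18 ± 0.20). In T both values lay only just above the limits of their arrays, 8.93 and 8.74. Both Kit lines lay below the 99th percentile of the negative controls (12.34 and 12.15 in T, 12.53 and 12.46 in PT). These folds therefore depend on the choice of limit. Samd9l, a restriction factor of poxviruses that also slows cell growth, read 14.01 and 13.78 in mVec, 8.41 and 7.92 in T, and 6.40 and 6.87 in PT. Both Kit lines were at background and well apart from mVec, and the falls were at least 33.3-fold in T (-5.73 ± 0.25) and at least 29.4-fold in PT (-7.25 ± 0.25). Cmpk2, a mitochondrial nucleotide kinase, read 10.72 and 10.77 in mVec, 4.06 and 4.54 in T, and 4.50 and 4.64 in PT. Rsad2, or viperin, makes a chain-terminating nucleotide from CTP, and its gene is the immediate neighbour of Cmpk2 on chromosome 12. Rsad2 read 9.38 and 8.95 in mVec, only just above the limit, and 6.46 to 6.82 in the Kit lines, a fall of at least 1.26-fold in T (-2.61 ± 0.23). Cmpk2 fell by at least 3.76-fold there (-6.44 ± 0.23). The dynamin-like genes Mx1 and Mx2 are listed by RefSeq as transcribed pseudogenes in C57BL/6J. Mx1 read 9.67 and 9.83 in mVec and between 4.56 and 5.73 in the Kit lines. Mx2 read 10.05 and 9.40 in mVec and between 4.97 and 5.58 there, and both genes were called lower in each line.

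Parp9, Parp12 and Parp14 belong to the family that attaches ADP-ribose to proteins, and Trim30a restrains inflammatory signalling. Trim30a read 13.10 and 12.82 in mVec, 4.12 and 4.15 in T, and 4.05 and 4.14 in PT. Its arrays did not overlap between mVec and the Kit lines, and the fall was at least 17.5-fold in T (-8.82 ± 0.21) and at least 15.4-fold in PT (-8.87 ± 0.21). Parp12 read 12.54 and 12.68 in mVec, 8.41 and 8.81 in T, and 7.54 and 8.43 in PT. In T 1 array was above background and the difference was -4.0 ± 0.30, and in PT the fall was at least 12.1-fold. Parp9 read 10.15 and 10.56 in mVec, 5.29 and 6.14 in T, and 4.60 and 4.51 in PT. Parp14 was above background on 1 mVec array only (8.90 and 9.08), and was called lower in both lines (-3.29 ± 0.22 in T and -3.40 ± 0.22 in PT).

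Xaf1 opposes the caspase inhibitor XIAP. It read 14.82 and 14.71 in mVec, 6.02 and 5.90 in T, and 5.39 and 5.79 in PT, a fall of at least 61.0-fold in T (-8.80 ± 0.22) and at least 53.9-fold in PT (-9.17 ± 0.22). Rtp4, a chaperone that carries receptors to the membrane, read 11.89 and 11.97 in mVec, 5.55 and 5.62 in T, and 5.18 and 4.79 in PT. Ifi27, a small mitochondrial and nuclear-envelope protein, had the most uneven arrays of the set in T, 8.36 and 6.84, against 11.93 and 11.89 in mVec and 5.81 and 6.54 in PT. It was called lower in both lines (-4.31 ± 0.44 in T and -5.74 ± 0.44 in PT). Ifi35, a partner of Nmi, was only just above the limit in mVec. Ifi35 read 9.12 and 9.19 in mVec, 7.50 and 7.74 in T, and 6.84 and 6.86 in PT. Helz2, a helicase and nuclear receptor coactivator, read 9.62 and 9.11 in mVec, 8.22 and 7.74 in T, and 6.89 and 8.12 in PT, with a T difference of -1.39 ± 0.38 (adjusted p = 0.0186). That T call did not hold when T replicate 2 (-1.15, adjusted p = 0.127) or mVec replicate 1 (-1.13, adjusted p = 0.124) was left out. Epsti1, named for its induction in epithelial and stromal co-culture, was at background everywhere, at 4.73 and 5.05 in mVec, 4.72 and 4.86 in T, and 5.35 and 4.66 in PT, with adjusted p of 0.829 in T and 0.809 in PT.

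Cxcl10 was the exception. This chemokine draws activated T cells through the receptor CXCR3 and is induced by interferons and by NF-kappaB. Cxcl10 read 8.99 and 9.11 in mVec, where 1 array was above background, 9.22 and 9.78 in T, and 10.24 and 10.11 in PT. All 4 arrays of the Kit lines lay above both mVec arrays, a pattern that 1 of the 41 genes showed in T and 2 in PT, beside 31.6% and 36.2% of all gene probe sets. The rise passed the test in PT, 2.18-fold (1.13 ± 0.24, limma adjusted p = 0.00383), and the T difference of 0.45 ± 0.24 did not (adjusted p = 0.199), and leaving out 1 array moved it between 0.73 without T replicate 1 (adjusted p = 0.05, called) and 0.17 without T replicate 2 (adjusted p = 0.703). The difference between the Kit lines missed the threshold (T minus PT -0.67 ± 0.24, adjusted p = 0.125) and passed it when only probe sets above background on at least 2 arrays were tested (adjusted p = 0.0432). Over the removals of 1 array it ran from -0.95 to -0.39. Ccl5, another chemokine of interferon and NF-kappaB responses, was outside the 41 genes and moved the other way. Its values were 11.21 and 11.68 in mVec, 7.47 and 8.78 in T, and 9.83 and 10.53 in PT.

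The GTPases of the set restrict bacteria and parasites that live in vacuoles, and many respond to interferon gamma as well as to type I interferon. The guanylate-binding proteins Gbp2, Gbp3 and Gbp7 coat such vacuoles and help to open them. Gbp7 read 14.72 and 14.64 in mVec, 6.85 and 6.43 in T, and 6.42 and 6.50 in PT. Gbp3 read 12.99 and 13.10 in mVec, 4.99 and 4.53 in T, and 4.96 and 5.43 in PT. The 3 genes lie together on chromosome 3, and all were above background in mVec alone. Measured against the limit, the folds were at least 57.4 for Gbp7, 18.5 for Gbp3 and 12.2 for Gbp2 in T, and at least 50.7, 16.4 and 10.8 in PT.

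The immunity-related GTPases divide into effectors that attack the vacuole, such as Iigp1, and the regulators Irgm1, Irgm2 and Igtp, which guard the membranes of the cell. Iigp1 read 13.87 and 13.62 in mVec, 4.78 and 4.38 in T, and 4.56 and 4.19 in PT. Its fall was at least 30.1-fold in T (-9.16 ± 0.24) and 26.6-fold in PT (-9.37 ± 0.24). Irgm1 read 13.88 and 13.92 in mVec, 8.97 and 9.02 in T, and 7.56 and 8.0 in PT. It was the one GTPase gene still above background in a Kit line, with a fall of 30.1-fold in T (-4.91 ± 0.22) and of at least 29.7-fold in PT (-6.12 ± 0.22). In T it lay only just above the limits of 8.93 and 8.74. Irgm2 read 10.14 and 9.94 in mVec, 3.83 and 4.01 in T, and 3.38 and 3.13 in PT. Igtp, its immediate neighbour on chromosome 11, was at background on every array, at 8.58 and 7.68 in mVec and between 3.38 and 4.07 in the Kit lines, and was called lower in both. Many GTPase, OAS and TRIM genes have near copies in the genome, and how far their probe sets share signal was not tested.

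**Figure D3:**
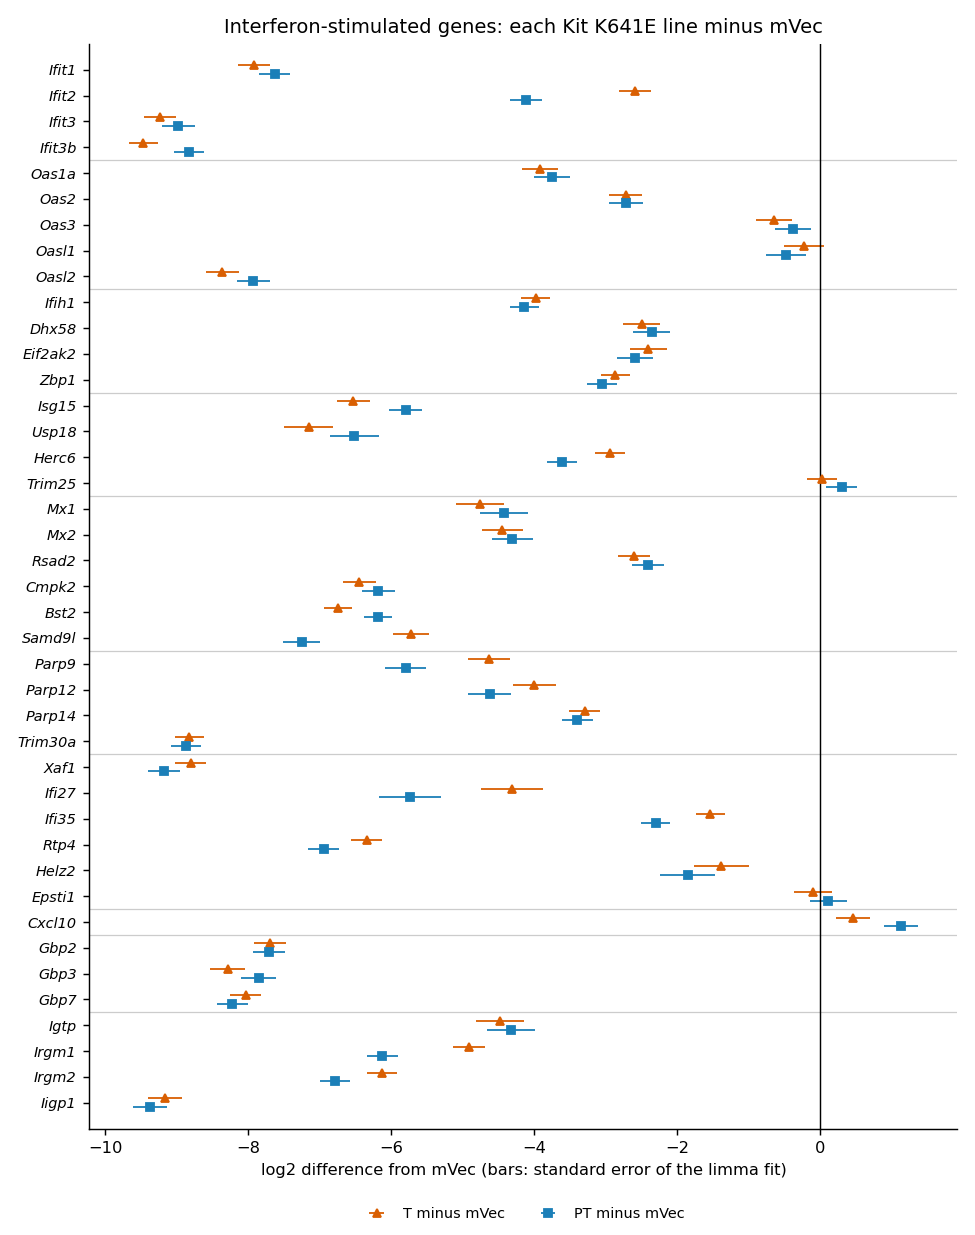
Log2 difference of T (orange triangles) and PT (blue squares) from mVec for the 41 genes, with bars for the standard error of the limma fit (2 arrays a group) and rows by role. The points of the 3 Gbp genes, at background in both lines, lie between -8.29 and -7.69, and Cxcl10 is at 0.45 in T and 1.13 in PT.

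The lines T and PT were compared next, to ask whether the falls were of the same size in both. The limma test called 5 of the 41 genes higher in T than in PT and 0 lower, while 5.67% of all gene probe sets were called higher, 2.7% lower and 8.36% either way. At an unadjusted p under 0.05, 9 were higher and 4 lower. The median over the 41 genes was 0.01, both T arrays lay above both PT arrays in 11 genes and below them in 9, and over all probe sets these shares were 23.8% and 26.3%. The 5 were Ifit2 (1.52 ± 0.23, adjusted p = 0.00483), Samd9l (1.53 ± 0.25, adjusted p = 0.0075), Irgm1 (1.21 ± 0.22, adjusted p = 0.0107), Parp9 (1.16 ± 0.29, adjusted p = 0.0407) and Ifi35 (0.77 ± 0.20, adjusted p = 0.0494). In each of these genes both T arrays lay above both PT arrays and both lines lay below mVec. Apart from Irgm1 in T, all of these T and PT values were at background, so no fold is given. Of these 5 calls, 4 were lost when some 1 array was left out. That of Samd9l went with PT replicate 1 (adjusted p = 0.0697), and that of Irgm1 with T replicate 2 (0.0641) or PT replicate 1 (0.086). Parp9 lost its call without any 1 of T replicate 2, PT replicate 1, PT replicate 2 and either mVec array, with adjusted p from 0.0567 to 0.207. Ifi35 lost it in 12 of 15 alternatives, including every removal of 1 array, with a highest adjusted p of 0.208. Among all 15 alternatives the lowest adjusted p was 0.0019 for Samd9l, 0.00248 for Irgm1, 0.014 for Parp9 and 0.0112 for Ifi35. Ifit2 kept its call in all 15 alternatives, with a T minus PT difference from 1.31 to 1.73. These alternatives were not all distinct. The probe set rule could change no member, and leaving out either mVec array repeated the fit of only the groups compared.

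**Figure D4:**
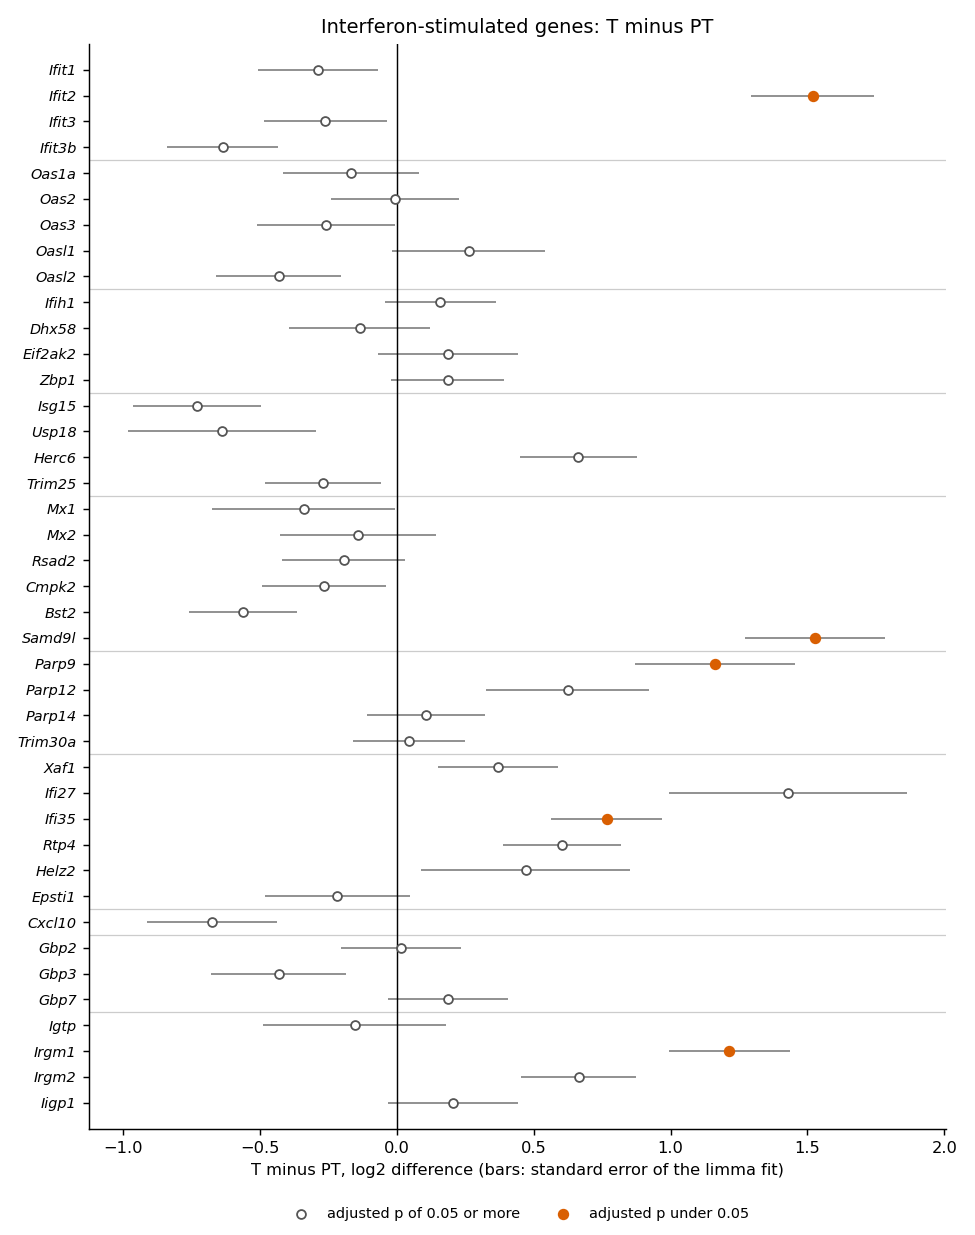
Log2 difference of T minus PT for the 41 genes, with the standard error of the limma fit (2 arrays a group) as bars and filled orange points for an adjusted p under 0.05. The 5 filled points, Ifit2, Samd9l, Parp9, Ifi35 and Irgm1, lie between 0.77 and 1.53.

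Genes of the pathway that were not members were read from lists. Of 19 measured genes of interferon receptors, their kinases, STAT proteins, interferon regulatory factors and the inhibitors Socs1 and Socs3, 13 fell and 1 rose in T, and 14 fell and 0 rose in PT (2 higher at an unadjusted p under 0.05), with medians of -1.24 and -1.31. Over all gene probe sets, 15.5% were called lower and 16.9% higher in T, and 18% and 17.9% in PT. Socs1 and Socs3 were among the listed genes that fell in both lines, with all values at background. Irf7, the factor that amplifies interferon output, read 10.15 and 10.03 in mVec and between 2.98 and 3.58 in the Kit lines. Irf9, the DNA-binding part of ISGF3, read 11.39 and 11.33 in mVec and between 5.19 and 5.36 there, and its partner Stat2 read 11.04 and 10.92 in mVec and between 5.90 and 6.64. All 3 were thus above background in mVec alone. Tyk2 was likewise above background in mVec alone (-2.70 in T and -3.68 in PT). Ifnar1, Ifnar2 and Jak1 stayed above background in every line. The receptor chain Ifnar1 was 3.32-fold lower in T and 3.31-fold lower in PT, Ifnar2 3.26-fold and 3.96-fold lower, and Jak1 2.75-fold and 2.48-fold lower. Ifngr1, a chain of the interferon gamma receptor, was the gene that rose in T (0.79 ± 0.23, adjusted p = 0.0261).

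None of the 18 measured interferon genes was above background on any array, which does not show that they were silent. In this list 0 genes were called in T by the limma test (also 0 at an unadjusted p under 0.05), and 1, Ifnb1, was called higher in PT with all its values at background (5.46 and 5.26 in mVec, 6.37 and 5.83 in PT). Among 51 other interferon-stimulated genes, 36 fell and 4 rose in T, and 38 fell and 2 rose in PT, with medians of -2.29 and -2.40. The shares over all gene probe sets were 15.5% lower and 16.9% higher in T, and 18% and 17.9% in PT. The largest called falls by deposited difference, values at background included, were those of the GTPase gene Tgtp2 (-8.02 ± 0.45 in T and -9.30 ± 0.45 in PT), the nuclear body protein Sp100 (-6.85 ± 0.26 and -7.25 ± 0.26), the galectin Lgals9 in PT (-7.13 ± 0.22) and Trim30d in T (-6.25 ± 0.39). Rises were seen for Pnpt1, a mitochondrial RNA nuclease, 3.10-fold in T and 4.63-fold in PT, and for Phf11c, 1.93-fold and 2.64-fold. Isg20, an RNA exonuclease, and Daxx, a histone chaperone, rose in T alone by the test, and their T minus PT differences were 0.96 ± 0.22 (adjusted p = 0.0272) and 0.67 ± 0.25 (adjusted p = 0.142).

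**Figure D5:**
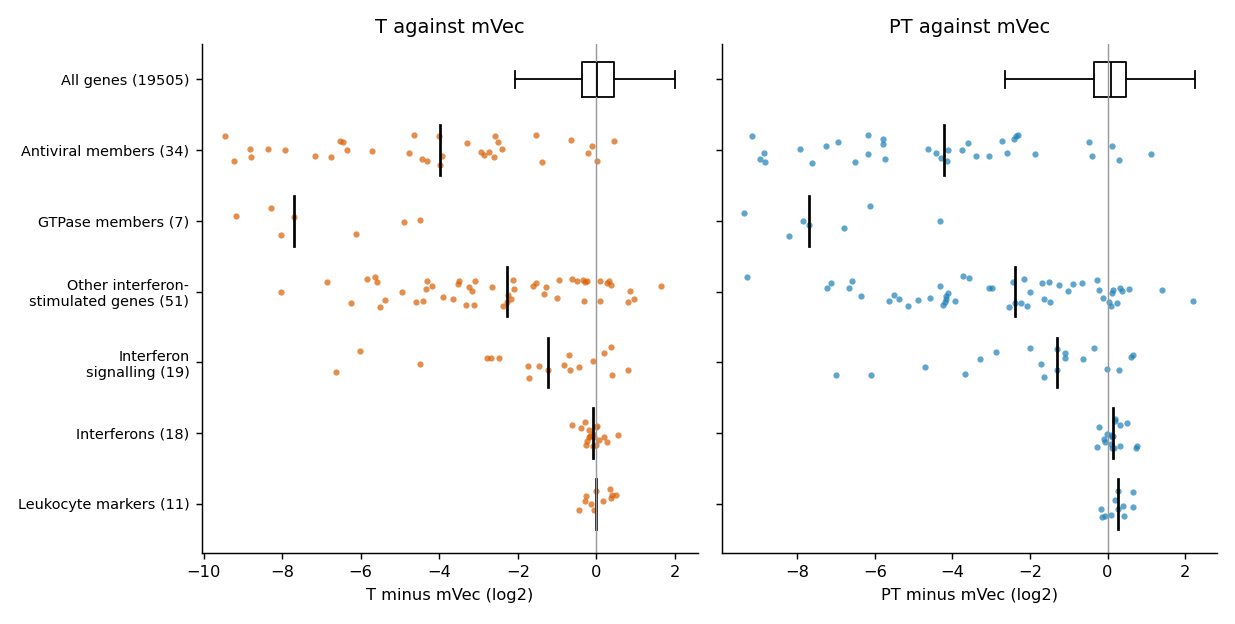
Log2 differences of T (left) and PT (right) from mVec, with 1 point a gene, black lines for medians and, for all 19505 named genes, a box of the quartiles with whiskers at the 5th and 95th percentiles. Medians are -3.99 and -4.22 for the 34 antiviral genes and -7.69 and -7.71 for the 7 GTPase genes, against 0.01 and 0.08 over all 22206 gene probe sets, a larger set than the named genes in the box.

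Other cell types were read beside these falls. None of the 11 leukocyte markers, Ptprc and Csf1r among them, was above background on any array, and 0 were called in either line by the limma test (0 in T and 2 in PT at an unadjusted p under 0.05). Of 9 fibroblast markers, 7 were called lower and 1 higher in both lines. Over all gene probe sets, 15.5% were called lower and 16.9% higher in T, and 18% and 17.9% in PT. The marker that rose was Col1a2, at 5.06 and 5.08 in mVec, 9.23 and 9.22 in T, and 9.12 and 9.33 in PT. Col1a1 was among the 7 that fell, at 15.08 and 15.19 in mVec and between 7.65 and 8.16 in the Kit lines. Postn had the largest deposited difference, at 15.22 and 15.37 in mVec and between 5.35 and 6.09 in the Kit lines. Lum also fell but was at background on every array. Above background were 6 markers on each mVec array, 3 on each T array and 1 or 2 on the PT arrays. The log2 values of the 9 markers summed to between 104.6 and 104.8 in mVec, 64.8 and 65.5 in T, and 58.4 and 60.3 in PT. Thy1 was at background throughout. The endothelial marker Cdh5 fell in both lines (-6.64 ± 0.25 in T and -6.35 ± 0.25 in PT), and the other 5 endothelial markers were not called. Among 11 genes of RNA quality and handling, 6 fell in both lines (Fos, Fosb, Egr1, Jun, Junb and Ier2) and 3 rose (Atf3, Hprt and Tbp), and Actb and Gapdh were not called. The part of these markers in the result was not tested.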

How the data were processed

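The authors deposited a table of log2 expression, with 1 value for each probe set on each array. No label names the unit, which follows from the range of the values, and the sources used here name no software, normalization method or genome build. The values were analysed as deposited with R 4.3.3 and limma 3.58.1. All 22206 gene probe sets of the 6 arrays entered a single model, in which the 3 lines were the terms (3 residual degrees of freedom, a prior of 6.36), and 6640 control rows were left out. Two-sided p-values were adjusted by Benjamini-Hochberg over all probe sets within each comparison, with calls under 0.05. The fit was tested on simulated data. Members and gene lists were chosen with earlier results of these data known. All 41 members are named. Per-array values are given for up to 3 genes a role, and for further genes where they help, and other lists are given by counts and their largest calls. Promoters come from RefSeq (GRCm38.p6). Alternatives covered array scaling, variance trend, filters on low values, arrays in the fit, the probe set rule, a minimum of 2-fold, a replicate block, the background limit, the motif and leaving out each array. Not all were distinct. The probe set rule could change no member, since each had 1 probe set. Leaving out an array of the line outside a comparison repeated the fit of only the groups compared.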

Additional observations from a re-analysis of the deposited data

Results flagged for a closer look

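Among the genes that fell in both lines that carry mutant Kit, the fall of 5 differed between the lines by the test of T minus PT itself. The log2 differences were 1.52 for Ifit2, 1.53 for Samd9l, 1.16 for Parp9, 0.77 for Ifi35 and 1.21 for Irgm1, with T the higher in each. In 4 of the 5 genes the values of both lines were at background.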

How the results depend on the processing

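Of the comparisons of single genes under 15 alternatives (fewer for genes that a filter removed), all 596 of PT minus mVec kept their side of the threshold. Of T minus mVec 591 did, with 2 calls lost and 3 gained, and of T minus PT 561, with 21 lost and 14 gained. These counts include repeated fits, since not all alternatives were distinct. No called gene reversed its direction, while uncalled differences near 0, such as those of Epsti1 in PT and of Epsti1, Trim25 and Oasl1 in T, changed sign. The calls gained against mVec were Oas3 with the replicate block (adjusted p = 0.0391) and without mVec replicate 1 (0.0487), and Cxcl10 in T without T replicate 1 (0.05). Centring each array on its median raised every difference from mVec by 0.18 in T and 0.19 in PT, and moved the share of higher calls among all calls from 52.3% to 62.3% and from 49.9% to 60.3%. The filter of probe sets above background on at least 2 arrays changed the calls between T and PT. It gave 7 antiviral genes higher and 4 lower, in place of 4 and 0, and 2 GTPase genes higher in place of 1. Of the genes that gained a call here, Ifit3b, Isg15, Herc6, Ifi27, Rtp4 and Irgm2 were above background only in mVec. They passed the filter through mVec, which is outside this comparison, and their T and PT values were at background. With probe sets above the median mean, 2 antiviral genes were called lower in T than in PT and 6 higher, and with only the groups compared, 2 were called higher. The genes gained with the median filter, Ifit3b, Isg15, Herc6 and Ifi27, were likewise above background only in mVec. Leaving out 1 array gave between 1 and 3 antiviral and between 0 and 1 GTPase genes called higher in T than in PT, and between 0 and 1 antiviral genes called higher in T than in mVec. Replicate numbers did not pair the arrays (r = 0.082, 0.043 and 0.040 between the deviations of equal numbers, across genes). With the replicate block, 30 antiviral genes were lower in T in place of 29. At the 99th percentile of the negative controls as the background limit, 12 in place of 30 genes were above it on both mVec arrays. The longer ISRE was found in 12 in place of 19 member promoters. The cause of these changes was not tested. Signal over background limits the size of any fold, since most members were at background in T and PT.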

Other observations

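Many members lie side by side in the genome. By the order of genes in RefSeq, 19 of the 41 fall into 8 groups with at most 2 other protein-coding genes in between, among them Ifit2, Ifit3, Ifit3b and Ifit1 on chromosome 19, Gbp7, Gbp3 and Gbp2 on chromosome 3 and Rsad2 and Cmpk2 on chromosome 12. The nearest measured genes outside the interferon lists, 63 in all, were read on both sides of each member. Of these neighbours 20 fell and 8 rose in T, and 21 fell and 9 rose in PT, which is 31.7% and 33.3% lower beside 15.5% and 18% of all gene probe sets. Over all gene probe sets 16.9% were called higher in T and 17.9% in PT. The median differences of the neighbours were -0.09 and -0.19. The neighbours that fell include relatives of the members, such as Ifit1bl1 (-2.84 in T and -2.69 in PT) and Trim30b (-1.32 and -0.97), and genes of other families, such as Lipa, a lysosomal lipase beside Ifit2 (-3.46 and -6.57), Agrn beside Isg15 (-4.98 and -6.12) and the fibroblast marker Fap beside Ifih1 (-7.30 and -9.32). F830016B08Rik beside Iigp1, Gm12250 beside Igtp and Irgm2, and Gm5431 beside Irgm1 also fell in both lines. How many of the neighbours are relatives of the members was not counted. Neighbours that rose include Nup54, a nuclear pore protein beside Cxcl10 (2.24 and 3.10).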
